A study of Homo sapiens with 4 samples.

Results

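The 8 genes described here are NFE2L2, which encodes the transcription factor NRF2, and 7 of its best known antioxidant targets: GCLC, GCLM, SLC7A11, TXNRD1, SRXN1, NQO1 and HMOX1. They were chosen by name, and every line assigned to any of them in the authors' deposited table was taken. This gave 66 distinct regions of H3K27ac, an acetylated form of histone H3 that marks active promoters and enhancers, out of 91107 regions beside 17301 genes. The cells were A375, an established human melanoma line. The labels give 2 libraries for vehicle, which was isopropanol, and 2 for 1 mM octanoate (a fatty acid of medium chain length), all after 48 hours. The labels do not say whether the 2 libraries of a group came from separate cultures, so the p-values may measure technical spread only. The authors' deposited table gives 1 comparison of the groups and no value per library. Its header does not name the numerator, so values are called positive or negative, and no direction under octanoate can be stated.

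NRF2 is held in the cytoplasm and sent for degradation by KEAP1 in unstressed cells. When oxidants or electrophiles modify KEAP1, NRF2 accumulates, pairs with small MAF proteins in the nucleus and binds antioxidant response elements in promoters and enhancers. Its targets make glutathione, regenerate thioredoxin and peroxiredoxins, detoxify quinones and break down haem. In melanoma, as in other tumours, this programme is known for supporting growth under oxidative stress.

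Promoter sequence was examined at 8 RefSeq windows of 6 of the genes, NFE2L2 and TXNRD1 having 2 windows each, in the GRCh38.p14 table of promoters, which run from 250 bases before a start to 50 after it. HMOX1 and SLC7A11 had no entry. The core of the antioxidant response element was searched on both strands as TGACNNNGC. It occurred in 3 of the 8 windows, 2 of them of TXNRD1, against 13.3% of all 35116 windows of that length. In 116 windows of the 7 lists of other pathway genes described below, the share was 20.7%. With so few member windows, no enrichment is claimed. The AP-1 element TGACTCA (a sequence that overlaps the core wherever GC follows it) was found in 0 of the 8 windows and in 4.95% of all windows. A match is a description of letters, not of binding, and no match says only that these letters are not in the window. The starts of all 8 windows lay in a region of the authors' deposited table, with or without a core. The 3 windows with a core are shown because they hold a match and include both starts of TXNRD1. The regions at those 2 starts had fold changes of opposite sign, but neither was called and both 95% intervals included 0. A difference between them was not tested. Each window shown runs 5′ to 3′ on the gene's strand from 250 bases before the start through the start itself, with the core in capitals.
GCLM, chr1:93909430-93909680, minus strand: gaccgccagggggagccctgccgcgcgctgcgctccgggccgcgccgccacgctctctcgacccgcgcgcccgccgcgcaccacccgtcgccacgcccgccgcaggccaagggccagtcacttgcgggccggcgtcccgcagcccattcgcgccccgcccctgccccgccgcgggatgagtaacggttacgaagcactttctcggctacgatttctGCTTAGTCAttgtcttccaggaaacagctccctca
TXNRD1 upstream start, chr12:104215529-104215779, plus strand: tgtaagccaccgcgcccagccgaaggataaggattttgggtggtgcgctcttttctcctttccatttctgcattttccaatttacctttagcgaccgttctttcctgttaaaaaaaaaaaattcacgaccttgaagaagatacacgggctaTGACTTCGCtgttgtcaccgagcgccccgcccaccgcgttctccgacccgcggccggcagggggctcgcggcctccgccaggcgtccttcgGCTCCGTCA
TXNRD1 inner start, chr12:104286782-104287032, plus strand: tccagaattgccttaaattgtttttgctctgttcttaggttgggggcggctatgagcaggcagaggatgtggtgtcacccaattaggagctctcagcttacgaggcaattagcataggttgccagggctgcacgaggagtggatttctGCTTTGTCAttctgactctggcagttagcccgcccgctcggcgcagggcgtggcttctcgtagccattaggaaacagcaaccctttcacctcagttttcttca

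In GCLM the core read TGACTAAGC on the opposite strand, from 34 to 26 bases before the start. The upstream start of TXNRD1 had TGACTTCGC on the gene's strand, from 99 to 91 bases before the start, and TGACGGAGC on the opposite strand ending at the start. The inner start of TXNRD1 had TGACAAAGC on the opposite strand, from 102 to 94 bases before it.

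None of the 8 genes had a region that passed the threshold. Of the 66 member regions, 25 carry an adjusted p in the authors' deposited table, and 0 of the 25 were called at an adjusted p under 0.05 (DESeq2, Benjamini-Hochberg). Over the whole of the authors' deposited table, 1.67% of tested regions were called, a share at which few calls would fall in 25 regions, so the count of 0 is near the background. By position, 0 of 8 member regions at distance 0 and 0 of 17 elsewhere were called, against 0.860% and 1.97% of such regions in the authors' deposited table. At an unadjusted p-value under 0.05 there was 1 of the 25, against 18.4%, or 2 of all 66, against 8.99%, in the authors' deposited table. Centring the fold changes on the table's median left 0 member calls (0.124% of all tested regions), and adjustment over all distinct regions also left 0 (0.274%).

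Most member regions leaned positive, as did the table. In the authors' deposited table, 22 of the 25 tested member regions had a positive log2 fold change, or 88.0%, beside 87.3% of all tested regions. The median over the 25 was 0.24, with extremes of -0.46 and 0.53, beside a median of 0.32 for all tested regions of the authors' deposited table. Of the 25, 9 lay above that median and 16 below it. Over all 66 member regions, tested or not, 80.3% were positive, beside 73.7% of all regions of the authors' deposited table. The 41 member regions without an adjusted p-value had lower levels, of 2.71 to 17.6 normalised units, and 10 of these were negative. Their standard errors in the authors' deposited table, 0.43 to 0.98, exceeded those of the 25 tested regions, 0.19 to 0.40. Given these errors and the largest unadjusted p-value among the table's calls, 0.000831, a tested member region would have needed an estimated log2 fold change of 0.63 to 1.33 in size to be called.

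**Figure D1:**
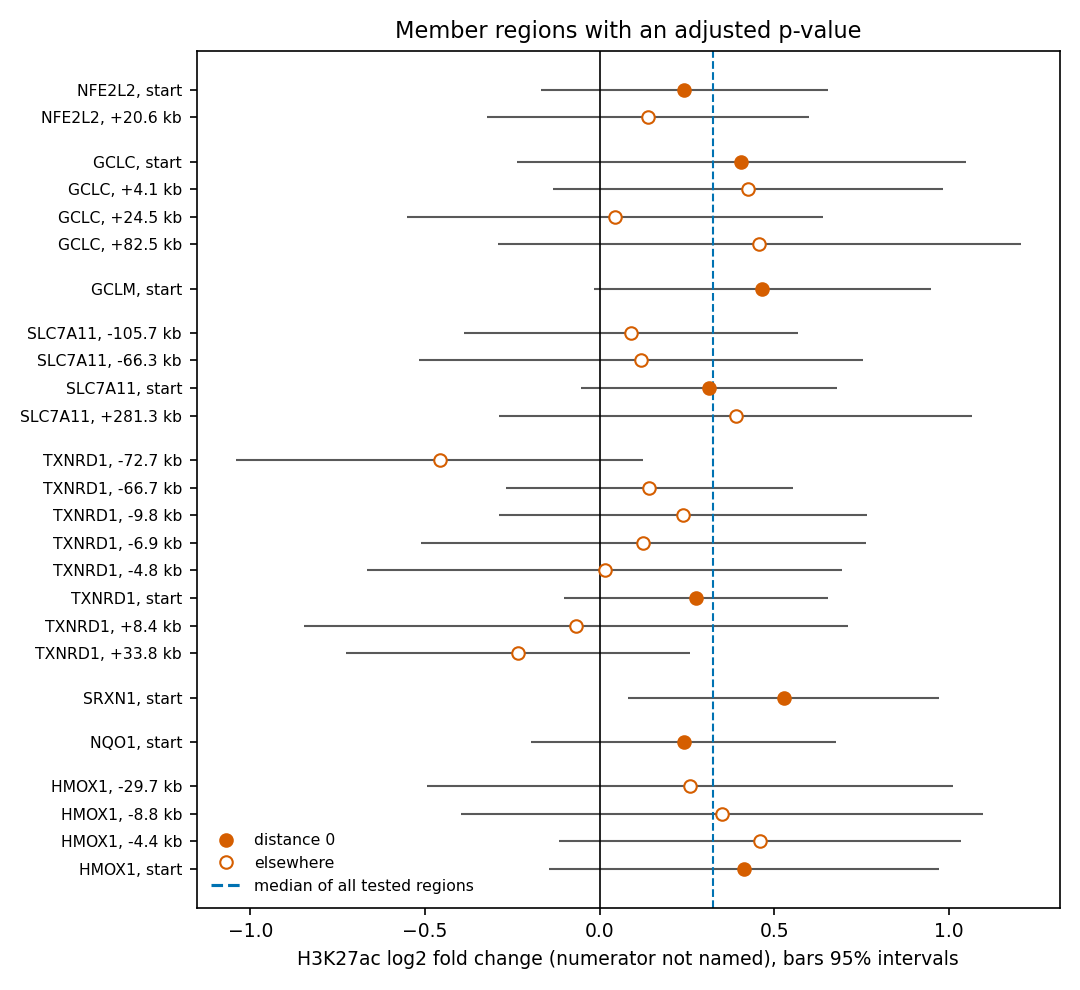
Log2 fold change (x axis) of the 25 member regions tested in the authors' deposited table, each labelled by its gene and the distance of its centre from the gene start used by the authors, upstream negative. Bars are 95% intervals from the deposited standard errors, filled points lie at distance 0, and the dashed line is the median of all tested regions, 0.32; the bars of 2 TXNRD1 regions end left of it.

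All 8 genes had exactly 1 region at distance 0, which is read here as overlap with the gene start the authors used. The fold changes of these 8 regions were all positive in the authors' deposited table, from 0.24 to 0.53 with a median of 0.36. That is the same as the median of 0.36 over all 10642 regions at distance 0, and 97.7% of those were above 0 in the authors' deposited table. The 58 regions elsewhere had a median of 0.24 with extremes of -0.46 and 1.44 in the authors' deposited table, beside 0.25 for all regions elsewhere. Per kilobase, levels at the 8 starts ran from 16.0 to 33.8 normalised units, with a median of 26.2, and elsewhere from 7.79 to 24.1, with a median of 13.1. The medians over all regions of the authors' deposited table were similar, 25.3 at distance 0 and 14.7 elsewhere. The contrast is thus not particular to these genes.

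The order of start levels per kilobase was SRXN1 (33.8), NQO1 (33.5), NFE2L2 (29.5), TXNRD1 (27.4), GCLC (25.0), HMOX1 (20.4), SLC7A11 (20.0) and GCLM (16.0). SRXN1 exceeded 84.2% of all regions at distance 0 and GCLM 9.45%. Without a value per library, no spread could be set on these levels, so it cannot be said which neighbours in the order differ.

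NFE2L2, the gene of NRF2 itself, had 6 regions. The region at its start (chromosome 2, 177260298 to 177266532, hg38) covered both RefSeq starts, at 177264131 and 177264727. Its mean level was 184 units and its log2 fold change 0.24 ± 0.21 (standard error, as for every ± here) in the authors' deposited table, at an adjusted p of 0.482 (DESeq2). As a ratio this was 1.18, with a 95% interval of 0.890 to 1.57. A second broad region of 8059 bases lay inside the gene, centred 21.7 kb after the outer start, with a level of 161 units and a log2 fold change of 0.14 ± 0.24 in the authors' deposited table. Between them, centred 12.9 kb into the gene, a region of 1456 bases had the largest fold change of the NFE2L2 regions, 1.02 ± 0.43 in the authors' deposited table, with an unadjusted p of 0.0167 (DESeq2). Its level of 16.3 units was below the limit that the authors' deposited table sets for adjustment, so it was not called. The 3 other NFE2L2 regions had levels of at most 7.60 units and log2 fold changes of -0.35 to 0.67 in the authors' deposited table.

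The glutathione genes came next. GCLC encodes the catalytic and GCLM the modifier subunit of glutamate-cysteine ligase, the enzyme of the rate-limiting step of glutathione synthesis. GCLC had 10 regions and GCLM 3. For GCLC the distance-0 region did not cover the RefSeq start: the distances in the authors' deposited table point to position 53548207 on chromosome 6, which is 3106 bases upstream of the RefSeq start at 53545101. The region at that RefSeq start is the one the authors' deposited table lists at a distance of 2688 bases (chromosome 6, 53542671 to 53545519). The pair had like values in the authors' deposited table, 0.41 ± 0.33 at distance 0 and 0.43 ± 0.28 at the RefSeq start, with adjusted p of 0.456 and 0.379 (DESeq2). Levels per kilobase were 25.0 and 24.1 units, and the region at the RefSeq start had the higher total level, 68.7 against 41.0 units in the authors' deposited table. The 2 other tested GCLC regions were centred 21.4 kb into the gene (0.043 ± 0.30 in the authors' deposited table) and 79.4 kb from the RefSeq start, beyond the gene's end (0.46 ± 0.38).

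Nearly all of the level summed over the GCLM regions lay at the gene's start, as did 4923 of their 5429 bases. Per kilobase the start region had 16.0 units, against 14.9 and 11.8 for the 2 other regions. The distance-0 region (chromosome 1, 93905283 to 93910206) covered the RefSeq start at 93909430 and the antioxidant response element core printed above. It carried 92.1% of the level summed over the GCLM regions of the authors' deposited table, or 78.9 units. The region's fold change was 0.47 ± 0.25 on the log2 scale in the authors' deposited table, with p-values of 0.0581 unadjusted and 0.286 adjusted (DESeq2), a ratio of 1.38 with a 95% interval of 0.989 to 1.93. The largest fold change of all 66 member regions belonged to a GCLM region of 230 bases centred 55.2 kb upstream, 1.44 ± 0.98 in the authors' deposited table. Its level there was 2.71 units, the lowest of the 66.

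SLC7A11 encodes the transport subunit of the cystine-glutamate antiporter, which brings in the cystine used for glutathione. It had the most regions of the 8 genes, 17, of which 10 lay more than 100 kb from its start. The region at the start (chromosome 4, 138234629 to 138244615) was the widest of the 66, at 9986 bases, and covered the RefSeq start at 138242349. It had a level of 200.0 units and a log2 fold change of 0.31 ± 0.19 in the authors' deposited table, at an adjusted p of 0.338 (DESeq2), the smallest standard error among the members. The ratio of 1.24 had a 95% interval of 0.963 to 1.60. The next strongest region, 5474 bases wide and centred 105.7 kb upstream, had 94.7 units and a log2 fold change of 0.090 ± 0.24 in the authors' deposited table. The 2 other tested regions were centred 66.3 kb upstream (0.12 ± 0.32 in the authors' deposited table) and 281 kb from the start beyond the gene's end (0.39 ± 0.35). None of the 4 intervals excluded 0 or the table's median. At these distances the assignment to SLC7A11 is only the authors' naming and does not show which gene a region acts on.

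TXNRD1 encodes cytosolic thioredoxin reductase, which uses NADPH to keep thioredoxin reduced. It had 15 regions and, of the 8 genes, the largest summed level, 692 units over 37268 bases in the authors' deposited table. RefSeq gives it 2 starts, 71.3 kb apart, and the authors' distances point to the inner one. The region there (chromosome 12, 104283903 to 104293706) covered the RefSeq start at 104287032. It had the highest level of all member regions, 269 units, and a log2 fold change of 0.28 ± 0.19 in the authors' deposited table, at an adjusted p of 0.395 (DESeq2). The upstream start at 104215779 lay in a region listed in the authors' deposited table at a distance of 70888 bases (chromosome 12, 104212444 to 104216134). That region had 44.7 units and a log2 fold change of -0.46 ± 0.30 in the authors' deposited table, at an adjusted p of 0.366 (DESeq2), a ratio of 0.728 with a 95% interval of 0.486 to 1.09. It had the most negative fold change of the 66 regions. Right beside it, the region from 104216732 to 104223938 had 144 units and 0.14 ± 0.21 in the authors' deposited table, so neighbouring regions at the upstream start differed in sign, and neither passed.

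TXNRD1 held all 3 negative values among the 25 tested member regions, and its 8 tested regions all lay below the table's median of 0.32. The other negative values in the authors' deposited table were -0.068 ± 0.40, centred 8.43 kb past the reference position, and -0.23 ± 0.25, centred 33.8 kb past it (chromosome 12, 104317897 to 104323842). The 95% intervals of the upstream start region and of the region at 33.8 kb, -1.04 to 0.12 and -0.73 to 0.26, left out the table's median. Intervals of the other 23 tested member regions included it. The share of all tested regions with an interval that leaves out the median was not computed. Regions of 1 gene are also not replicates, so the TXNRD1 values are given only as a description. After centring, the 2 regions had log2 values of -0.78 and -0.56 with adjusted p of 0.502 and 0.727, computed from the standard errors of the authors' deposited table. Without TXNRD1, the median over all member regions went from 0.25 to 0.34.

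SRXN1 encodes sulfiredoxin, which repairs overoxidised peroxiredoxins. It had 2 regions, and its start region (chromosome 20, 651396 to 654145) was the only tested member region with an unadjusted p-value under 0.05. The log2 fold change was 0.53 ± 0.23 at 92.9 units in the authors' deposited table, with p-values of 0.0203 unadjusted and 0.199 adjusted (DESeq2). This was a ratio of 1.44 with a 95% interval of 1.06 to 1.96, which excludes 1 but includes 1.25, the ratio at the table's median. The same region is also assigned to a second, clone-named gene in the authors' deposited table, so its signal cannot be given to SRXN1 alone. The other SRXN1 region, centred 10.8 kb from the RefSeq start beyond the gene's end, had 0.86 ± 0.50 at 12.5 units in the authors' deposited table.

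NQO1 encodes a quinone reductase whose induction is a common readout of NRF2 activity. Its start region (chromosome 16, 69722159 to 69729538) held 91.4% of the level summed over its 4 regions in the authors' deposited table, at 247 units. The log2 fold change of 0.24 ± 0.22 in the authors' deposited table had an adjusted p of 0.508 (DESeq2), the highest of the 8 start regions. The ratio of 1.18 had a 95% interval of 0.873 to 1.60. The 3 other NQO1 regions had at most 11.6 units and no adjusted p-value, with log2 fold changes of -0.24, 0.55 and 0.85 in the authors' deposited table.

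HMOX1 encodes haem oxygenase 1, which breaks down haem and whose upstream enhancers are a classic site of NRF2 and BACH1 action. In contrast to NQO1, GCLM and SRXN1, its start region (chromosome 22, 35380536 to 35382951) held only 26.0% of the level summed over its 9 regions in the authors' deposited table, and all the others lay upstream. The share at distance 0 was lower still for GCLC, 18.4%, and was 38.8% for TXNRD1, 43.0% for SLC7A11 and 48.7% for NFE2L2. For GCLC, however, the region at the RefSeq start is a different one, with 68.7 units against 41.0 at distance 0. TXNRD1 has a further start outside its distance-0 region. The shares of these 2 genes are therefore not like the others. The HMOX1 start region had 49.3 units and 0.41 ± 0.29, with an adjusted p of 0.392 (DESeq2), in the authors' deposited table. Upstream, the region from 35374615 to 35378333, centred 4.62 kb before the RefSeq start, had the higher level, 62.7 units, and 0.46 ± 0.29 in the authors' deposited table, at an adjusted p of 0.360 (DESeq2). Regions centred 9.02 and 30.0 kb before the start had 0.35 ± 0.38 and 0.26 ± 0.38 in the authors' deposited table. The 4 tested HMOX1 regions thus had values that spanned 0.20, less than any of their standard errors. Of the 5 untested upstream regions, 4 had positive values in the authors' deposited table and 1 a negative value, with extremes of -0.38 and 0.89.

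**Figure D2:**
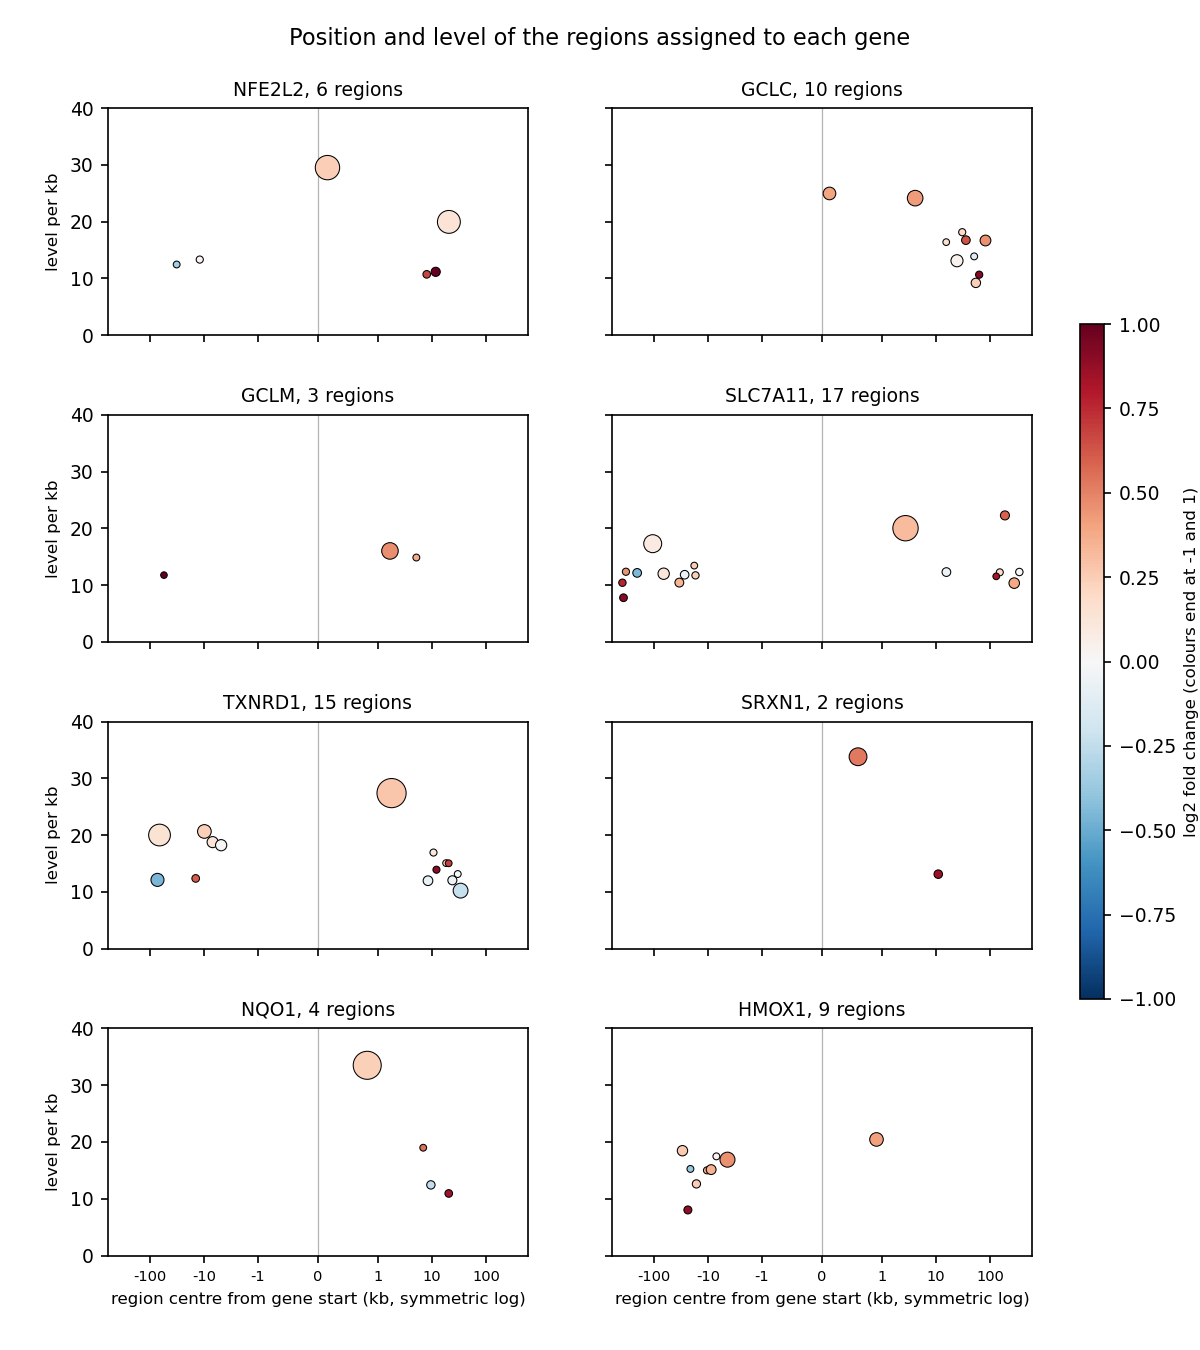
Level per kilobase (y axis, normalised units) of all 66 regions by the distance of the region's centre from the gene start used by the authors (x axis, kb, symmetric log scale, upstream negative), 1 panel per gene. Circle area grows with mean level and colour gives the log2 fold change. NQO1, GCLM and SRXN1 each have 1 large circle, at the start. The HMOX1 regions away from the start all lie upstream, and the TXNRD1 regions of 20.0 units per kilobase or more lie at the start and upstream of it.

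Against the RefSeq annotation, 9 of the 66 regions covered a start of their gene, 25 lay inside the gene, 22 upstream and 10 downstream. The 9 had log2 fold changes of -0.46 to 0.53 and a median of 0.31 in the authors' deposited table. Inside the genes the median was 0.14, with 7 of 25 negative in the authors' deposited table. Upstream and downstream it was 0.26 and 0.52, with 4 of 22 and 1 of 10 negative. Of all regions away from distance 0 in the authors' deposited table, 70.5% were positive. Most of the 25 regions inside genes, and of their 7 negative values, belonged to TXNRD1. Their median therefore cannot be told apart from a trait of that gene. Only 8 of the regions inside the genes, 6 of the upstream and 2 of the downstream ones had an adjusted p-value, so the downstream median rests mainly on regions of low level.

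The members were also set against regions of their own level. In the authors' deposited table, 90065 regions had levels of 2 to 500 units, all 66 among them. These were binned by level, and each member was compared with the 5th and 95th percentiles of its bin. Of the 66 regions, 5 lay outside that range, or 7.58%, beside 10.0% of all binned regions, a share that the percentiles set; the count is therefore no more than the background and the 5 are given only as a description. The 3 below it were the upstream start of TXNRD1, the TXNRD1 region 33.8 kb past the reference position and an SLC7A11 region 205 kb upstream (-0.45 in the authors' deposited table). The 2 above it were the NFE2L2 region 12.9 kb into the gene and the GCLM region 55.2 kb upstream. All 8 regions at distance 0 lay inside.

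**Figure D3:**
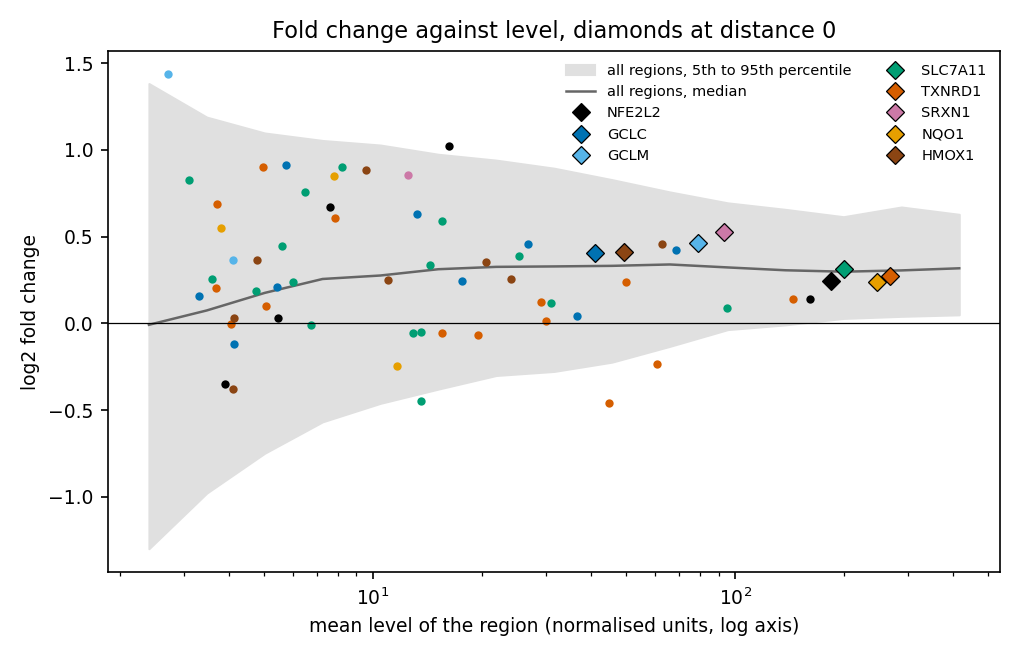
Log2 fold change (y axis) against mean level (x axis, log scale, normalised units) for the 66 member regions, coloured by gene, with diamonds at distance 0. The grey band runs from the 5th to the 95th percentile of the binned regions in the authors' deposited table at that level and the grey line is their median; the 8 diamonds lie between 0.24 and 0.53, inside the band.

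The rest of the NRF2 pathway was described with 7 lists of other genes. Of 100 names listed, 97 had a line in the authors' deposited table; GPX1 and GPX2 had none, and HRG1 is another name of SLC48A1, which was found. These genes had 443 regions, 202 of them with an adjusted p-value, with a median log2 fold change of 0.36 over the 202 and 93.6% positive in the authors' deposited table. Calls numbered 6 of 202, or 2.97%, all positive, beside 1.67% of all tested regions of the authors' deposited table. At an unadjusted p-value under 0.05 there were 44 of 202, or 21.8%, beside 18.4% of all tested regions of the authors' deposited table. By list, that share was 21.4% for regulators of NRF2 and 22.2% for glutathione use and supply. It was 22.6% for the thioredoxin and peroxiredoxin list and 26.7% for haem and iron handling.

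Among regulators of NRF2, 2 of 42 tested regions were called, or 4.76%, beside 1.67% of all tested regions. The strongest lay beside NFE2L1, which encodes the related factor NRF1 (chromosome 17, 48054732 to 48056867), at a distance of -5960 bases. It had a log2 fold change of 1.63 ± 0.32 in the authors' deposited table, at an adjusted p of 0.000518 (DESeq2), and was the only one of the 6 calls that also passed after centring, at 1.31 with an adjusted p of 0.0389. The other lay 8584 bases from MAFK, a small MAF partner of NRF2 (1.06 ± 0.30, adjusted p 0.0374, DESeq2, in the authors' deposited table). All 12 start regions of this list were positive but not called, from 0.26 for RBX1, a subunit of the ligase that degrades NRF2, to 0.68 ± 0.25 for MAFK in the authors' deposited table. KEAP1 was the 1 gene of the 13 in the list without a region at distance 0.

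Glutathione use and supply held 1 call among 45 tested regions, or 2.22%, beside the same 1.67%. It covered the start of CHAC1, which encodes an enzyme that degrades glutathione (0.92 ± 0.23, adjusted p 0.0158, DESeq2, in the authors' deposited table). The lowest start value of that list was 0.13 ± 0.20 for SLC3A2, the partner subunit of SLC7A11, in the authors' deposited table. The thioredoxin and peroxiredoxin list held 1 call of 31, or 3.23%. It lay 49804 bases from PRDX6, which encodes a peroxiredoxin (1.05 ± 0.29, adjusted p 0.0289, DESeq2, in the authors' deposited table). None of the 14 start regions of that list was called. They ran from 0.13 for TXNRD3 to 0.50 for SESN2, which encodes the stress protein sestrin 2, in the authors' deposited table.

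Haem and iron handling held 2 calls of 15, or 13.3%, beside the same 1.67%, a share that rests on few regions. SLC48A1, which encodes a haem transporter, had its start region called at 0.92 ± 0.27 (adjusted p 0.0441, DESeq2) in the authors' deposited table. A region 56398 bases from FTH1, the ferritin heavy chain gene, had 0.94 ± 0.25 (adjusted p 0.0262, DESeq2) in the authors' deposited table. At such a distance, as for the PRDX6 region, the gene is only the authors' naming. FECH, which encodes ferrochelatase, had the lowest start value of the list, 0.26 ± 0.33 in the authors' deposited table. No region of the other 3 lists was called: NADPH supply, with 0 of 21 (1 at an unadjusted p-value under 0.05), quinone, aldehyde and other detoxification, with 0 of 39 (13), and superoxide and peroxide removal, with 0 of 9 (0), by DESeq2 in the authors' deposited table. The bracketed counts are shares of 4.76%, 33.3% and 0%, to be read beside the same 18.4%. Among tested regions at distance 0 in these lists, values ran from 0.21 for IDH2 to 0.50 for ME1, both NADPH-producing enzymes, from 0.038 for TRIM16 to 0.69 for AIFM2, a reductase of ubiquinone, and from 0.30 for the catalase gene CAT to 0.50 for the mitochondrial superoxide dismutase gene SOD2 in the authors' deposited table.

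**Figure D4:**
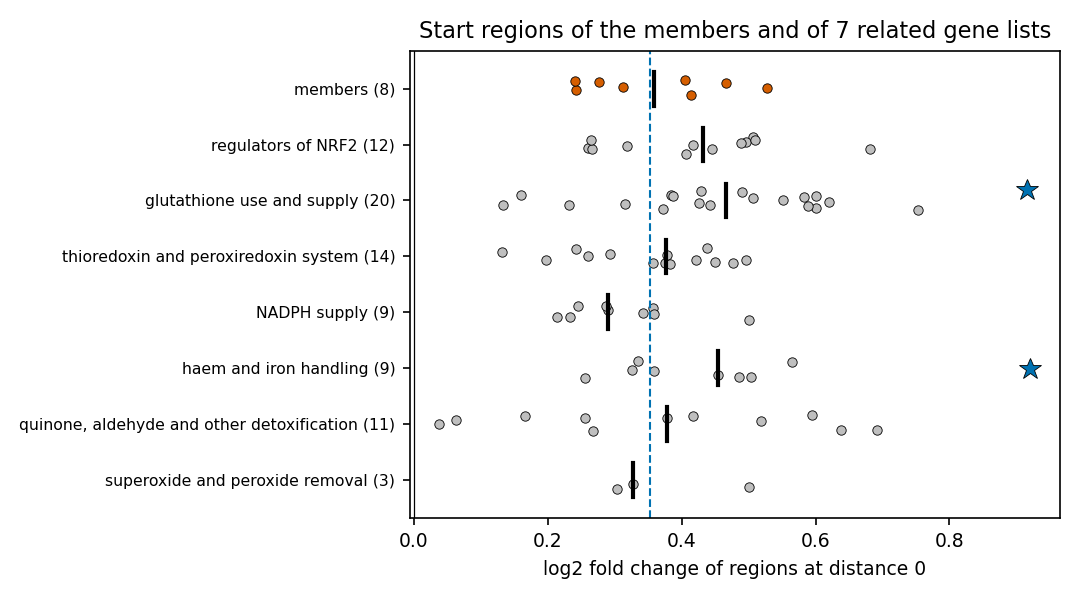
Log2 fold change (x axis) of the tested regions at distance 0 of the 8 members and of 7 related gene lists, with the number of regions in brackets; stars are calls of the authors' deposited table, grey or orange points are not called, and black bars are medians. The dashed line is the median of all tested regions at distance 0, 0.35; the members run from 0.24 to 0.53 with a median of 0.36, and the 2 stars are CHAC1 and SLC48A1.

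The labelled cell type was checked on regions at distance 0 in the authors' deposited table. Of 8 melanocyte and melanoma markers, 4 had one (MITF, SOX10, PMEL and S100B) and 4 had none (MLANA, TYR, DCT and TYRP1). All 4 markers of the dedifferentiated melanoma state, AXL, NGFR, SOX9 and JUN, had one. Of the keratinocyte and leukocyte markers 0 of 3 each had one, and of the epithelial ones 1 of 2, EPCAM. None of these regions was called in the authors' deposited table. The markers without one all had regions elsewhere. Per kilobase, SOX10 exceeded 96.3% of all regions at distance 0, AXL 94.9%, JUN 83.9%, PMEL 62.2%, MITF 47.0% and NGFR 39.0%. EPCAM exceeded 21.7%, more than S100B (7.31%) and SOX9 (3.91%). Presence of a region at distance 0 thus set both melanoma lists apart from the keratinocyte and leukocyte lists, which hold only 3 genes each. It did not separate the melanocyte list from the epithelial one, at 4 of 8 and 1 of 2.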

How the data were processed

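H3K27ac was profiled in 2 vehicle and 2 octanoate libraries, grouped by the treatment in the labels. The submitters' processing notes name hg38, Trim Galore, cutadapt, FastQC, Bowtie2, Picard, MACS2, featureCounts, DESeq2 and bedtools 2.29.1, with no role or settings. Only the authors' comparison was analysed, and 0 columns of single libraries were left out. The mean level is a deposited signal normalised by the authors, per the file headers, with the scaling not named. The fold change and standard error are deposited on the log2 scale. The deposited score equals their ratio, to within 3.38e-14. The deposited p-value is its two-sided normal p-value, and Benjamini-Hochberg adjustment over the 36436 regions above 18.44 units gives the deposited adjusted values back. An adjusted value of 1 was read as not computed. Depth per library is unknown.

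The planned quasi-likelihood test could not be run without values per library. Repeated lines were merged into distinct regions, and coordinates are as deposited, whether counted from 0 or 1 not being named. The gene start used by the authors was recovered as region end plus distance, or region start plus a negative distance, and agreed within 1 base over the regions of each gene. It was compared with RefSeq GRCh38.p14, where the strand of HMOX1 and SLC7A11 was taken from the gene end nearer to that position. Intervals are the fold change ± 1.96 standard errors. In centring, the median of tested regions was subtracted and p-values were recomputed from the deposited standard errors. All procedures used Python 3.11.15, pandas 2.3.3 and scipy 1.17.1. Only the Benjamini-Hochberg adjustment and the centring were tested on simulated data. The members, lists and rules were chosen with earlier results of these data known. Named were all members (in full for start regions, unadjusted p-values under 0.05 and the strongest region elsewhere) and, per list, calls and the extreme start regions; the other TXNRD1, GCLC, GCLM, SLC7A11 and HMOX1 regions were picked out with values seen.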

Additional observations from a re-analysis of the deposited data

How the results depend on the processing

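The count of 0 calls among member regions was the same under an adjusted p-value under 0.01, a log2 fold change of at least 1, adjustment over all distinct regions, centring, all lines, distance 0, within 100 kb, a mean level of at least 10, each gene left out in turn and, chosen after seeing the data, regions covering a RefSeq start. The median of the member regions, 0.25, ran from 0.24 to 0.36 under these choices of regions and genes and was 0.25 as a weighted mean. It became -0.071 after centring, by construction. Positive regions made up 80.3% of all 66, beside 73.7% of all regions, and 100% at distance 0, beside 97.7%. Of the 66, 43.9% lay above the table's median of 0.32, which is over tested regions only. The median over all regions, tested or not, was lower, 0.28. The share of all regions above 0.32 is thus under an even split, and it was not computed. Centring changed the sign of 24 of the 66 regions, all positive before. Among the 17 regions at distance 0, of highest level away from a start or with an unadjusted p-value under 0.05, these were 7: NFE2L2 (-0.081 at the start, -0.19 in the gene), NQO1 (-0.082), SLC7A11 (-0.011 at the start, -0.23 upstream) and TXNRD1 (-0.047 at the start, -0.18 beside the upstream start). Calls in the related lists, 6, became 1 at 0.01, 2 over all distinct regions, 1 after centring and 2 at distance 0. No paired analysis was possible because single libraries have no values, and for the same reason leaving out replicates, other size factors, filters on counts and DESeq2 were not run. Levels under 18.44 units limit 41 of the 66 regions.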
